A study of Mus musculus with 28 samples.

Results

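The 9 genes described here encode receptors and factors that set up and mark the macrophage lineage: Csf1r, Csf2ra and Csf2rb, Spi1, Cebpa, Cebpb and Maf, and Adgre1 and Ly6c2. They were chosen by name from the 55487 gene IDs of each library, for their known roles. Their transcripts were measured in 28 RNA-seq libraries of macrophages that were grown in culture from mouse bone marrow. All libraries came from wild-type cells cultured for 48 h, in 7 groups of 4. The M0 group had no polarizing cytokine. The other 6 groups had IFN-γ or IL-10, each at 50 ng/mL, and each cytokine had a group with engulfed apoptotic regulatory T cells (Treg-phagocytic), a group with engulfed conventional CD4 T cells, also apoptotic (Tconv-phagocytic), and a group with neither (non-phagocytic). The T cells had been killed with ATP/NAD+ and carried an anti-CD4 antibody with a dye that showed uptake, and macrophages were sorted by uptake after the co-culture. The study's design lists a co-culture without cytokine too, but the labels of the M0 libraries mention neither T cells nor uptake. In a difference between a cytokine group and M0 the effects of the cytokine, of co-culture and of sorting cannot be told apart. The labels do not say that replicates came from separate animals or cultures, so the p-values measure only the spread between these libraries, which may be technical.

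The CSF1 receptor (Csf1r) is a receptor tyrosine kinase that binds CSF1 and IL-34 and keeps macrophages alive and growing. The GM-CSF receptor joins an α chain that is specific to the cytokine (Csf2ra) to a β chain (Csf2rb) that it shares with the IL-3 and IL-5 receptors. PU.1 (Spi1) is an ETS-family factor required for the myeloid lineage and for transcription of Csf1r. C/EBPα (Cebpa) directs early myeloid commitment, C/EBPβ (Cebpb) serves mature and activated macrophages, and c-Maf (Maf) restrains macrophage self-renewal and drives Il10. Adgre1 encodes F4/80, the classical surface marker of mouse macrophages, and Ly6c2 encodes the Ly6C antigen of inflammatory monocytes.

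Of the 9 genes, 2 have a near copy close by on chromosome 15, so reads from shared stretches can be given to the wrong gene. The coding sequences of Csf2rb and Csf2rb2 (the β chain specific to IL-3 in the mouse) are 95.2% identical over 2628 aligned bases, and 26.2% of 50-base windows of Csf2rb occur unchanged in Csf2rb2. Those of Ly6c2 and Ly6c1 are 92.7% identical over 386 bases, and 47.1% of 50-base windows are shared. The 60-base coding stretch of each pair with the most differences is shown from the reference genome (GRCm38, gene strand), with differing bases in capitals, since only such stretches tell the copies apart. The Csf2rb stretch lies at chr15:78338893-78338952 (plus strand) and that of Csf2rb2 at chr15:78294379-78294438 (minus strand), and 13 bases differ. The Ly6c2 stretch lies at chr15:75111603-75111662 and that of Ly6c1 at chr15:75048447-75048506 (both minus strand), and 6 bases differ.
Csf2rb: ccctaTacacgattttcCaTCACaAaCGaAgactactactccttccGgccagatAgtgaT
Csf2rb2: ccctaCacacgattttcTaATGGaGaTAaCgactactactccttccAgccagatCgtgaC
Ly6c2: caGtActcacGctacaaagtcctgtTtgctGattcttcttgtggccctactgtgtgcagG
Ly6c1: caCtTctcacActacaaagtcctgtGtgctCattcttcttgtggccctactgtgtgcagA

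Promoter sequences from RefSeq (GRCm38.p6) were at hand for 4 of the 9 genes: Csf2ra, Cebpa, Cebpb and Ly6c2. The 250 bases before the transcript start were searched on both strands for GAGGAA (a core of PU.1 sites), TTGCNNAA (C/EBP) and TTCNNNGAA (the GAS element of STAT factors). These letters occur in 23.3%, 9.6% and 7.0% of 32851 promoters of the same length. The Csf2ra promoter, chr19:61228419-61228668 on the minus strand, is shown as the only 1 at hand for a receptor gene. It holds GAGGAA 2 times side by side (capitals), the last of its bases at position -3 from the start, and no match to the other letters.
Csf2ra promoter: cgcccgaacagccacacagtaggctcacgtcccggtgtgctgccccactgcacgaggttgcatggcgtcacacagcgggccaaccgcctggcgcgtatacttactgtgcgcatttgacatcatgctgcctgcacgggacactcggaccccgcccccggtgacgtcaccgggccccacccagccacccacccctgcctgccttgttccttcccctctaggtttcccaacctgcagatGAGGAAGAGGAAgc
The Cebpa and Cebpb promoters hold none of the 3 motifs. The 2 annotated starts of Ly6c2 have 1 and 2 matches to GAGGAA. These are matches of letters, and binding was not measured.

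Sequencing depth differed between the groups. The files hold TPM (transcript abundance per length, scaled to a fixed total) and no counts, so depth was estimated from the steps between low values: relative to the deepest library it was 11.4% to 23.9% under IFN-γ, 49.1% to 89.8% under IL-10 and 68.7% to 100% in M0. The median SD of a gene between replicates on the log2 scale was 0.233 to 0.274 under IFN-γ and 0.102 to 0.122 in the other 4 groups. Over the 9 genes that median was 0.051 to 0.115. Of 18 broad macrophage markers, 15 were at 1 TPM or more in all 28 libraries and their summed level was 30502 to 37276 TPM. Of 23 T cell markers, all were above 0 in every library, and their sum was 228 to 359 TPM in M0, 737 to 1305 TPM under IFN-γ and 213 to 394 TPM under IL-10. Il7r, singled out after its values were seen, made up a mean of 159.2 TPM of the M0 sum and 96.5 TPM of the IL-10 non-phagocytic sum and was lower under both cytokines. Without it the sums were 73.1 to 193.9, 640 to 1192.5 and 118.1 to 288.6 TPM. Sums of 10 stromal markers were 118 to 137 TPM in M0, 3.32 to 11.6 TPM under IFN-γ and 28.8 to 165.1 TPM under IL-10. In bulk RNA, fewer cells of a type and less RNA per cell cannot be told apart.

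Csf1r transcripts, which mark the CSF1-dependent macrophage, were abundant in every library, at 385 to 963 TPM. In M0 the 4 libraries held 587.9, 650.35, 676.69 and 632.24 TPM. With IFN-γ they held 408.45, 428.79, 385.15 and 407.36 TPM in non-phagocytic, 477.82, 385.72, 417.25 and 400.77 TPM in Tconv-phagocytic and 449.19, 437.92, 492.66 and 438.94 TPM in Treg-phagocytic macrophages. All 12 of these libraries lay below M0. The Treg-phagocytic values were all above the non-phagocytic ones, and the Tconv-phagocytic values overlapped with both. With IL-10 the values were 932.68, 928.05, 905.24 and 962.69 TPM without uptake, 879.04, 884.97, 851.34 and 909.42 TPM after Tconv uptake and 844.85, 786.7, 781.15 and 751.52 TPM after Treg uptake. All 12 lay above M0, and the Treg-phagocytic libraries lay below the other IL-10 libraries.

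Csf2ra, the α chain of the GM-CSF receptor (chr19:61223957-61228429), had its highest mean in M0. The M0 range overlapped with that of the IL-10 non-phagocytic libraries. M0 libraries held 282.45, 376.09, 361.98 and 406.38 TPM. IFN-γ libraries held 91.4 to 130.2 TPM whatever the uptake, with group means of 115 ± 12.5 (non-phagocytic), 101 ± 8.73 (Tconv) and 108.5 ± 11.2 TPM (Treg; SD, n = 4 each). Under IL-10 the level differed between the groups sorted by uptake. Non-phagocytic libraries held 287.04, 260.6, 283.6 and 292.21 TPM, Tconv-phagocytic libraries 202.13, 194.2, 184.85 and 200.31 TPM, and Treg-phagocytic libraries 195.03, 193.81, 178.86 and 195.79 TPM. Every phagocytic IL-10 library lay below every non-phagocytic one, and the 2 phagocytic groups overlapped.

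Csf2rb, the shared β chain (chr15:78325752-78353847), was highest under IL-10. M0 libraries held 172.91, 167.21, 156.02 and 174.3 TPM. Under IL-10 there were 249.99, 249.29, 266.36 and 287.03 TPM without uptake, 221, 185.8, 194.14 and 196.66 TPM after Tconv uptake and 193.31, 199.7, 199 and 182.89 TPM after Treg uptake. All 12 values were above M0. Under IFN-γ all 12 values were below M0, at means of 87 ± 15.6 TPM (non-phagocytic), 82.7 ± 11.9 TPM (Tconv) and 66.9 ± 4.93 TPM (Treg). The ratio of the α to the β chain in TPM, which is a level per length, was 2.13 ± 0.335 in M0, 1.36 ± 0.277 in IFN-γ and 1.07 ± 0.056 in IL-10 non-phagocytic libraries. IFN-γ Treg-phagocytic ratios (1.41 to 2.00) overlapped with those of M0 (1.63 to 2.33), and the highest IFN-γ non-phagocytic ratio was 1.61. All IL-10 non-phagocytic ratios were 1.15 or lower.

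Spi1 (PU.1; chr2:91082390-91115756) had the narrowest relative range of the 9 genes, 202.16 to 329.49 TPM. Its M0 values were 240.57, 262.92, 262.33 and 261.3 TPM. The IFN-γ groups had means of 221.2 ± 5.68, 218.7 ± 16.5 and 225.4 ± 9.71 TPM (non-phagocytic, Tconv, Treg). The IL-10 groups had means of 328.6 ± 1.37, 306.9 ± 8.15 and 290 ± 11.7 TPM in the same order. Every IL-10 library lay above every M0 library, and the IL-10 non-phagocytic libraries did not overlap with the phagocytic ones.

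Cebpa (chr7:35119293-35121928) was at like levels in M0 and under IL-10 and lower under IFN-γ. M0 libraries held 111.16, 116.91, 114.62 and 118.53 TPM, and IL-10 libraries 105.1 to 115.6 TPM in 3 overlapping groups. IFN-γ libraries held 69.9, 63.14, 72.84 and 66.38 TPM without uptake, 64.14, 65.13, 66.12 and 69.96 TPM after Tconv uptake and 87.47, 75.16, 89.39 and 71.5 TPM after Treg uptake. Of the Treg-phagocytic libraries, 3 lay above all other IFN-γ libraries and the fourth did not.

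Cebpb (chr2:167688915-167690418) was highest under IL-10 without uptake. The libraries there held 407.12, 377.84, 411.3 and 438.3 TPM, against 214.3, 285.57, 258.7 and 259.36 TPM in M0. After Tconv uptake under IL-10 they held 330.34, 399.72, 303.58 and 367.06 TPM and after Treg uptake 317.3, 325.35, 325.52 and 317.27 TPM. The Treg-phagocytic values were all below the non-phagocytic ones, while the Tconv-phagocytic values overlapped with both. IFN-γ means were 204.8 ± 8.36, 193.1 ± 13.5 and 208.4 ± 9.05 TPM (non-phagocytic, Tconv, Treg). Tmem189 lies on the opposite strand over Cebpb and had a mean of 187 TPM over the 28 libraries. The kit keeps strand, but the strand setting of the counting is not given in the sources used here, so reads of the pair may have been mixed.

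Maf (chr8:115682942-115707794) was the least abundant of the 4 transcription factors, at 18.4 to 40 TPM. Its group means were 29.9 ± 0.975 TPM in M0, 21.5 ± 2.2, 24.1 ± 0.918 and 24 ± 1.06 TPM under IFN-γ and 37.1 ± 0.873, 38.9 ± 1.18 and 35.6 ± 1.36 TPM under IL-10 (non-phagocytic, Tconv, Treg). All IL-10 libraries were above M0 and all IFN-γ libraries below.

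Adgre1 (F4/80; chr17:57358691-57483527) was at 475 to 846 TPM. M0 libraries held 715.06, 694.16, 728.79 and 707.87 TPM. IL-10 libraries held 793.52, 845.79, 801.85 and 811.75 TPM without uptake, and means of 759.3 ± 12.2 TPM after Tconv and 731.3 ± 21 TPM after Treg uptake. IFN-γ libraries held 503.51, 475.33, 524.84 and 532.81 TPM without uptake, 576.35, 477.94, 548.73 and 542.61 TPM after Tconv uptake and 608.73, 585.26, 573.34 and 566.57 TPM after Treg uptake. All Treg-phagocytic values under IFN-γ were above the non-phagocytic ones, and all IFN-γ values were below M0.

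Ly6c2 (chr15:75108158-75111970) was near 0 in these macrophages. IFN-γ non-phagocytic libraries held 1.22, 1.49, 3.23 and 1.37 TPM, and IFN-γ Treg-phagocytic libraries 0, 0, 0.14 and 0 TPM. M0 libraries held 0.67, 0.16, 0 and 0.65 TPM. The 4 IL-10 Treg-phagocytic libraries held 0.42, 0.67, 0.77 and 1.27 TPM. By the depth estimate these values stand for 0 to 7.5 reads a library. The 4 IFN-γ non-phagocytic libraries together held about 13.5 reads and the 4 Treg-phagocytic libraries 0.2, where 3 reads in 1 library would be worth 1.6 to 2.78 TPM. A level such as that of M0 was thus not detectable in those shallow libraries, and reads shared with Ly6c1 may have been given to either copy.

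**Figure D1:**
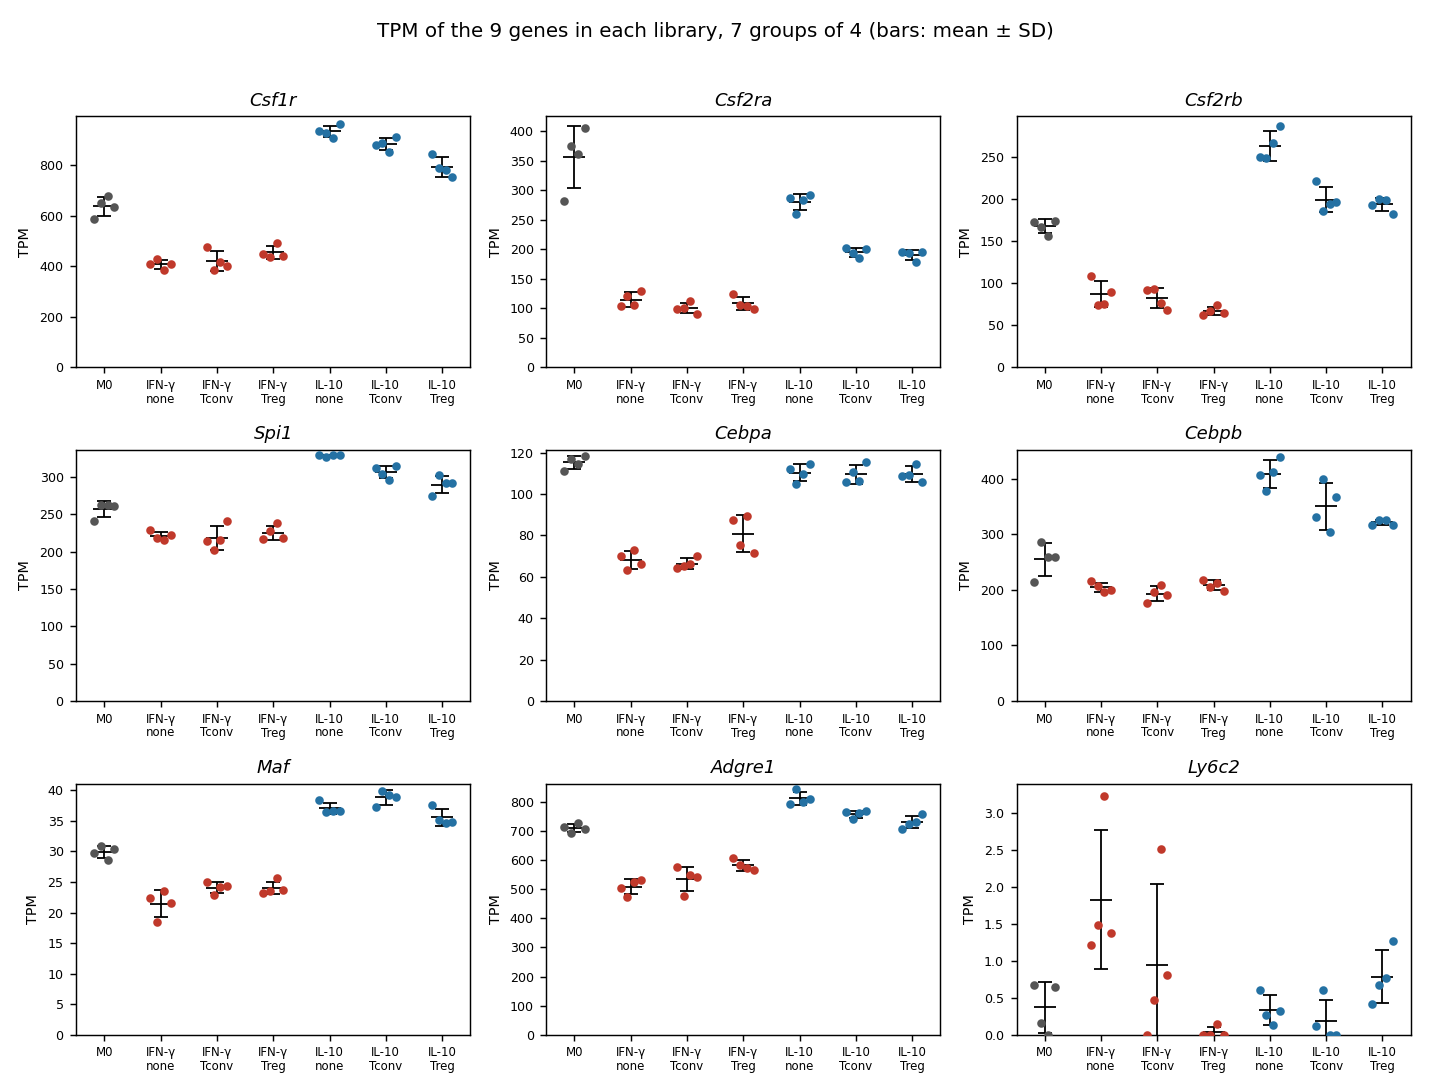
TPM of the 9 genes (vertical axes, each from 0) in each of 28 libraries, 4 points a group, with bars for mean ± SD; the IFN-γ groups are drawn in red, the IL-10 groups in blue and M0 in grey. Csf1r, Csf2rb, Spi1 and Maf are above M0 in all 12 IL-10 libraries and below M0 in all IFN-γ libraries (for Spi1 in all but 1), while Csf2ra has its highest mean in M0 (356.7 TPM).

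The first comparison set macrophages without uptake, after 48 h of IFN-γ, against M0. As said above, it cannot tell the cytokine from co-culture and sorting. The GM-CSF receptor chains and Csf1r were lower, with the α chain differing most, and Cebpa and Adgre1 were lower as well. Spi1, Cebpb and Maf did not pass the test. Tests used limma on log2(scaled TPM + 1), with Benjamini-Hochberg adjustment over 13631 genes and a call at an adjusted p under 0.05, and all 9 genes passed the filter on low values. Ly6c2 passed it through 6 libraries at 1 TPM or more, 4 of them IFN-γ non-phagocytic, so its difference from that group was partly built in. Calls in comparisons that involve this group are therefore counted over the other 8 genes, with Ly6c2 given as a value. The log2 difference was -1.33 for Csf2ra (95% interval -1.61 to -1.05, limma adjusted p = 2.88e-05), a level 2.51 times higher in M0. It was -0.66 for Csf2rb (-0.93 to -0.40, adjusted p = 0.00129) and -0.35 for Csf1r (-0.47 to -0.23, adjusted p = 0.000636). Cebpa differed by -0.46 (adjusted p = 0.00011) and Adgre1 by -0.19 (adjusted p = 0.00333). Of the 8 genes 5 were lower and 0 higher, beside 25.8% of all genes tested lower and 27.1% higher. The median of the 9 was -0.19 and that of all genes 0.00.

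These differences are relative to the bulk of genes. The scaling took 0.292 on the log2 scale off the raw difference between IFN-γ and M0 libraries, and without it the median of all genes was -0.24. Without scaling, Cebpb (-0.31, adjusted p = 0.00992) and Maf (-0.47, adjusted p = 0.00124) were also lower, and Spi1 turned from 0.08 (adjusted p = 0.179) to -0.21 (adjusted p = 0.00168). The direction for Spi1 thus depends on the scaling, whereas the 5 calls of lower level held both ways. For Ly6c2 the log2 difference was 1.15 (0.56 to 1.75), on the few reads given above. Beside these differences, 22 of 23 T cell markers were higher than in M0 and 5 of 6 tested stromal markers lower, and their part in the result was not tested.

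IL-10 without uptake was compared with the same M0 libraries. Here 6 of the 9 genes were higher, Csf1r, Csf2rb, Spi1, Cebpb, Maf and Adgre1, and only Csf2ra of the 9 was lower, beside 13.7% of all genes higher and 12.8% lower. Cebpb was higher by 0.67 on the log2 scale (0.47 to 0.87, limma adjusted p = 0.000554) and Csf2rb by 0.63 (0.51 to 0.76, adjusted p = 4.51e-05). Csf1r was higher by 0.54 (0.43 to 0.64, adjusted p = 3.63e-05), a level 1.45 times that of M0. Spi1 was higher by 0.34 (adjusted p = 0.000129), Maf by 0.29 (adjusted p = 0.000468) and Adgre1 by 0.18 (adjusted p = 0.00118). Cebpa (-0.08, adjusted p = 0.147) and Ly6c2 (-0.02, adjusted p = 0.944) did not pass. The lower Csf2ra (-0.35, adjusted p = 0.0422) was lost on leaving out any 1 of the 8 libraries except M0 replicate 1, with adjusted p of 0.0696 to 0.105. Of the stromal markers 5 of 6 tested were lower and of the T cell markers 2 of 23 were lower, and their part was not tested.

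**Figure D2:**
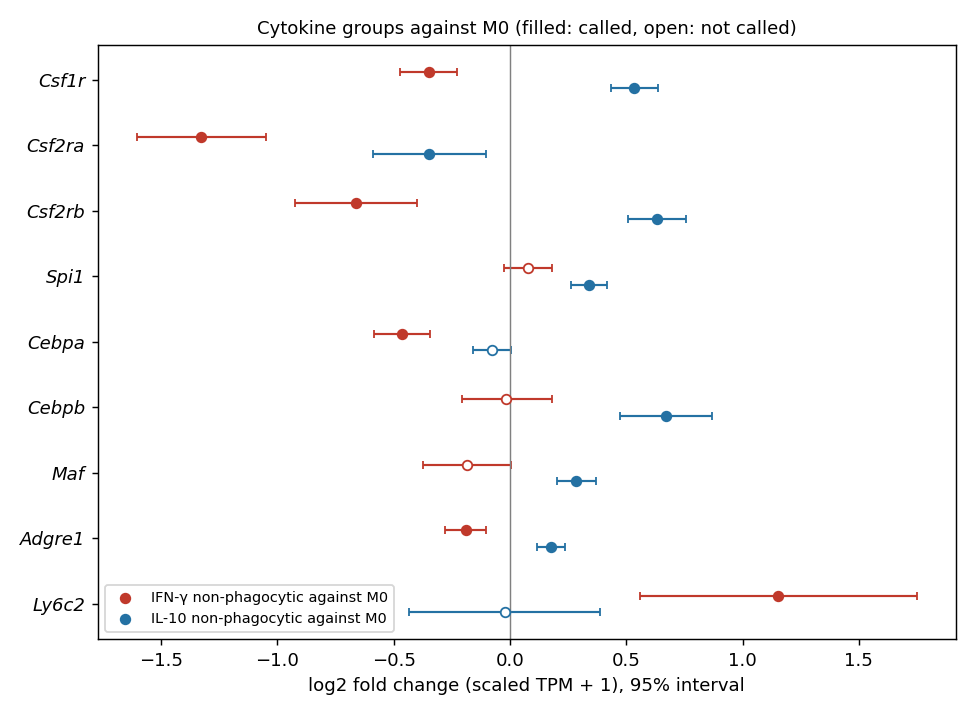
Log2 difference (scaled TPM + 1) of the 9 genes between non-phagocytic macrophages of each cytokine and M0, with 95% intervals; filled points passed an adjusted p of 0.05. Under IFN-γ the 3 receptor genes lie left of 0 (Csf2ra at -1.33), and under IL-10 Csf1r, Csf2rb and Cebpb lie right of 0 (0.54, 0.63 and 0.67); both comparisons use the same 4 M0 libraries.

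The cytokines compared with each other, in non-phagocytic macrophages that share co-culture and sorting, differed in all 8 genes other than Ly6c2. All 8 were lower under IFN-γ, beside 24.8% of all genes lower and 26.2% higher. The log2 difference was -1.29 for Csf2rb (-1.56 to -1.03, limma adjusted p = 2.14e-05), -0.98 for Csf2ra (-1.16 to -0.80, adjusted p = 8.89e-06) and -0.89 for Csf1r (-0.98 to -0.80, adjusted p = 2.38e-07). Among the factors it was -0.69 for Cebpb (adjusted p = 7.26e-06), -0.47 for Maf (adjusted p = 0.00116), -0.39 for Cebpa (adjusted p = 0.000333) and -0.26 for Spi1 (adjusted p = 0.000187). Adgre1 differed by -0.37 (adjusted p = 7.45e-05). Ly6c2 differed by 1.18, on few reads. In the 8 lower genes, every IFN-γ library lay below every IL-10 library in TPM. These 8 calls held under all 15 alternatives run. All 23 T cell markers were higher under IFN-γ, at a median of 2.50, and their part was not tested.

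Under IFN-γ, uptake of Treg cells went with modestly higher Csf1r, Cebpa and Adgre1. Against non-phagocytic macrophages, Adgre1 was higher by 0.27 on the log2 scale (0.18 to 0.37, limma adjusted p = 0.00727), Cebpa by 0.32 (0.14 to 0.50, adjusted p = 0.0434) and Csf1r by 0.23 (0.12 to 0.35, adjusted p = 0.0278). For Ly6c2 the log2 difference was -1.49, on the few reads described. Of the 8 other genes 3 were higher and 0 lower, beside 3% of all genes higher and 5.3% lower. Without scaling Adgre1 (0.20, adjusted p = 0.0324) passed and Csf1r (0.16, adjusted p = 0.11) and Cebpa (0.24, adjusted p = 0.154) did not. Csf1r lost its call without any 1 of non-phagocytic replicates 1, 3 and 4 or Treg-phagocytic libraries BV421-1 and BV421-2 (adjusted p 0.0528 to 0.0692), and Cebpa without any library except BV421-2 (0.0576 to 0.105). In all, Csf1r lost its call in 9 and Cebpa in 10 of 15 alternatives, among them no filter and the file number as a replicate block. Adgre1 lost its call only with that block (adjusted p = 0.053). The intervals for Csf2ra (-0.22 to 0.21), Csf2rb (-0.58 to 0.01), Spi1 (0.00 to 0.21), Cebpb (0.00 to 0.20) and Maf (0.02 to 0.45) belong to changes that did not pass adjustment. Of 16 macrophage markers tested 8 were also higher and 1 lower.

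After uptake of Tconv cells under IFN-γ, 0 of the 9 genes passed the test. Their log2 differences from non-phagocytic macrophages ran from -0.70 (Ly6c2) to 0.12 (Maf), and the adjusted p was 0.745 or more for each. Limma called 1 gene of all in this comparison (0% higher and 0.00734% lower), while 870 had an unadjusted p under 0.05. The 95% interval was -0.18 to 0.17 for Csf1r, -0.22 to 0.05 for Cebpa, -0.12 to 0.18 for Adgre1 and -0.10 to 0.33 for Maf. The 2 kinds of cargo were also compared directly. Treg-phagocytic macrophages had higher Cebpa (0.40, 0.24 to 0.57, adjusted p = 0.0102), Cebpb (0.24, 0.12 to 0.35, adjusted p = 0.0191) and Adgre1 (0.25, 0.11 to 0.38, adjusted p = 0.0301) than Tconv-phagocytic ones, beside 5.41% of all genes higher and 7.3% lower. Without scaling none of the 3 passed, at 0.28 (adjusted p = 0.0708), 0.11 (adjusted p = 0.305) and 0.12 (adjusted p = 0.24). Of 16 macrophage markers tested 9 were also higher and 1 lower, and their sum was 36855 to 37276 TPM in Treg-phagocytic and 30502 to 33674 TPM in Tconv-phagocytic libraries. The part of this shift in the result was not tested. Cebpb lost its call without Tconv-phagocytic library Ax647-2 (adjusted p = 0.0555), and Adgre1 without any of 6 libraries, all but Tconv-phagocytic BV421-1 and BV421-2 (0.0562 to 0.0735). In all, Adgre1 lost its call in 10, Cebpb in 5 and Cebpa in 1 of 17 alternatives. Csf1r (0.24, adjusted p = 0.0748) passed under 2 of 17 alternatives, among them the fit without Tconv-phagocytic BV421-1 (0.31, adjusted p = 0.00907).

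Under IL-10, Csf2ra was lower after uptake of either cell, and Csf2rb was lower after Treg uptake and, in a call that depended on the libraries and the model, after Tconv uptake. After Treg uptake Csf2ra was lower by a log2 difference of -0.47 (-0.57 to -0.37, limma adjusted p = 0.000479) and Csf2rb by -0.36 (-0.47 to -0.24, adjusted p = 0.00358). After Tconv uptake the differences were -0.44 for Csf2ra (-0.54 to -0.34, adjusted p = 0.00127) and -0.32 for Csf2rb (-0.46 to -0.17, adjusted p = 0.0243). Both comparisons use the same 4 non-phagocytic libraries. The Tconv call for Csf2rb was lost without any 1 of non-phagocytic replicates 3 and 4 or Tconv-phagocytic libraries BV421-2, Ax647-1 and Ax647-2 (adjusted p 0.0535 to 0.0702), without the filter (0.0882) and in a model of all 28 libraries (0.139). Cebpb was lower after Treg uptake (-0.26, -0.36 to -0.17, adjusted p = 0.0053). After Tconv uptake it differed by -0.15 (-0.34 to 0.04, adjusted p = 0.381). Csf1r was lower after Treg uptake (-0.16, adjusted p = 0.0342), a call lost without any 1 of 7 of the 8 libraries, all but Treg-phagocytic Ax647-1 (0.0633 to 0.0892). After Tconv uptake it differed by 0.00 (-0.06 to 0.06).

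Maf was higher after Tconv uptake under IL-10 (0.15, 0.07 to 0.22, limma adjusted p = 0.0389). This call was lost without scaling (0.07, adjusted p = 0.266) and without any 1 of 6 libraries, all but non-phagocytic replicate 1 and Tconv-phagocytic BV421-1 (0.087 to 0.0983). In all, 4 of 9 genes were lower and 0 higher after Treg uptake, beside 4.49% of all genes lower and 6.91% higher. After Tconv uptake 2 were lower and 1 higher, beside 1.8% lower and 4.23% higher. Between Treg- and Tconv-phagocytic macrophages under IL-10, limma called 0 of the 9 genes, at log2 differences of -0.16 (Csf1r, adjusted p = 0.117) to 0.58 (Ly6c2, adjusted p = 0.208), beside 0.47% of all genes higher and 0.932% lower. Of the 9, the intervals of Csf1r, Spi1, Maf, Adgre1 and Ly6c2 excluded 0 before adjustment. Without scaling, Spi1 (-0.18, adjusted p = 0.00581) and Adgre1 (-0.15, adjusted p = 0.00946) were lower after Treg uptake too. T cell markers summed to 213 to 228 TPM in non-phagocytic, 252 to 306 TPM in Tconv-phagocytic and 354 to 394 TPM in Treg-phagocytic IL-10 libraries, with 22 of 23 higher after Treg and 10 of 23 after Tconv uptake. Stromal markers summed to 84.3 to 89.5, 153 to 165.1 and 28.8 to 32.7 TPM in the same order. The part of these other transcripts in the result was not tested.

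**Figure D3:**
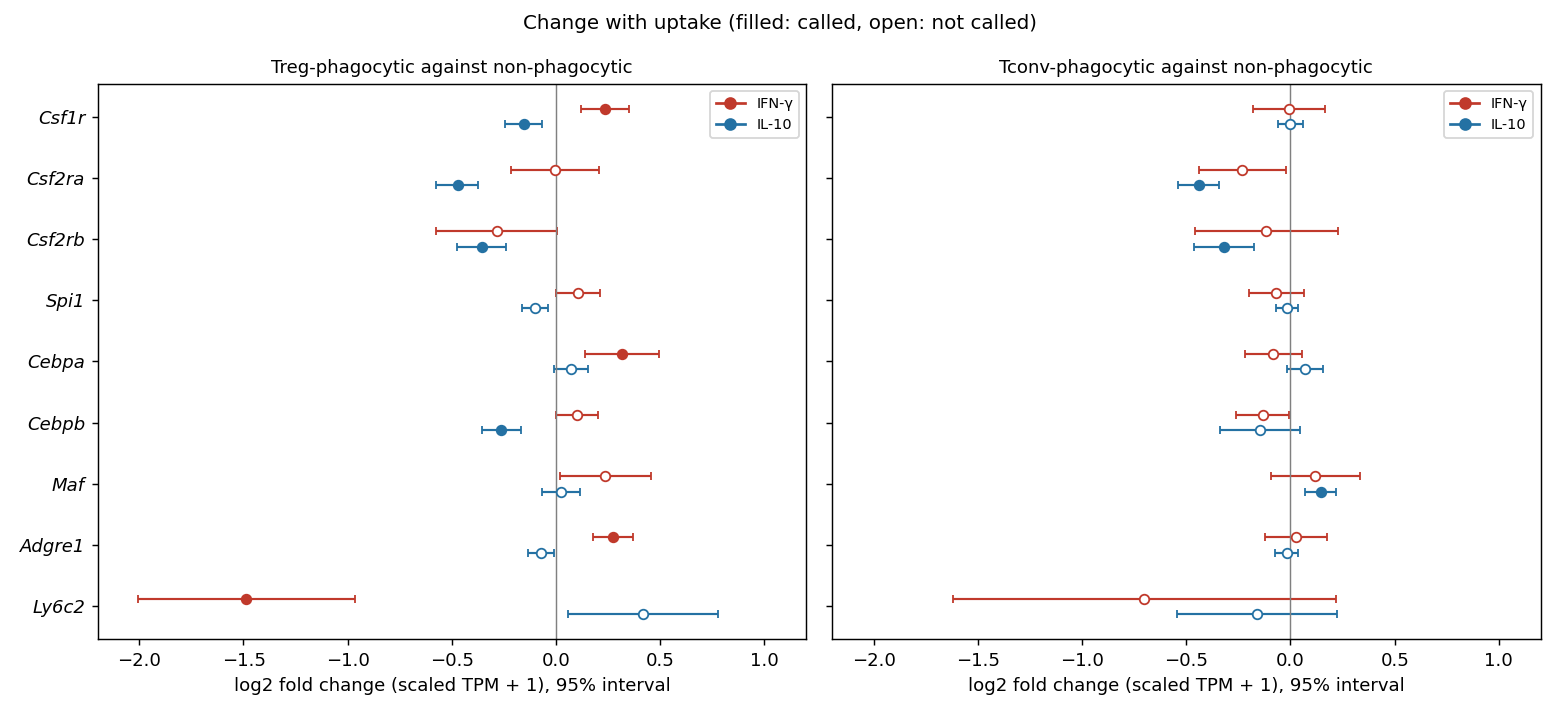
Log2 difference (scaled TPM + 1) of the 9 genes after Treg uptake (left) and Tconv uptake (right) against non-phagocytic macrophages under IFN-γ (red) and IL-10 (blue), with 95% intervals; filled points passed an adjusted p of 0.05. Csf1r after Treg uptake lies at 0.23 under IFN-γ and -0.16 under IL-10, and after Tconv uptake at -0.01 and 0.00.

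Whether the differences by uptake were alike under the 2 cytokines was tested directly, as the difference between IFN-γ and IL-10 in the log2 change. For Treg against non-phagocytic macrophages, 5 of the 8 genes other than Ly6c2 differed, beside 9.44% of all genes tested. The change was more positive under IFN-γ by 0.35 for Adgre1 (0.24 to 0.45, limma adjusted p = 0.00033), 0.39 for Csf1r (0.25 to 0.53, adjusted p = 0.000954), 0.37 for Cebpb (0.23 to 0.50, adjusted p = 0.00125) and 0.47 for Csf2ra (0.25 to 0.69, adjusted p = 0.00902). It was more positive by 0.20 for Spi1 (adjusted p = 0.03), a call lost without any 1 of 8 of the 16 libraries: IFN-γ Treg-phagocytic BV421-1, the 4 IL-10 non-phagocytic libraries, and IL-10 Treg-phagocytic Ax647-1, BV421-1 and BV421-2 (adjusted p 0.0501 to 0.0677). For Ly6c2 the value was -1.90, which rests on few reads and on the group through which it passed the filter. Csf2rb did not differ in the test (0.07, -0.22 to 0.37, adjusted p = 0.812). All 5 calls held without scaling. With variance weights for the groups, Csf2ra (adjusted p = 0.128), Spi1 (0.12) and Cebpb (0.235) were lost. In the same test 6 of 16 macrophage markers were more positive and 2 more negative under IFN-γ, 5 of 23 T cell markers were more negative and 1 of 6 stromal markers was more positive. Their part in the result was not tested.

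For Tconv against non-phagocytic macrophages 0 of the 9 genes differed between the cytokines in limma's test, beside 1.68% of all genes, of which 1657 had an unadjusted p under 0.05. The estimates ran from -0.54 (Ly6c2) to 0.21 (Csf2ra, -0.01 to 0.43). For Treg against Tconv the difference was called for Csf1r (0.40, adjusted p = 0.00588), Cebpa (0.40, adjusted p = 0.00439), Adgre1 (0.30, adjusted p = 0.00514), Cebpb (0.35, adjusted p = 0.0184) and Spi1 (0.25, adjusted p = 0.0262), beside 13.6% of all genes. Ly6c2 (-1.36, adjusted p = 0.049) is left out of this list. Under IFN-γ its 4 libraries held about 0.2 reads in all after Treg and 8.5 after Tconv uptake, too few to carry a call. Here 11 of 16 macrophage markers and 4 of 6 stromal markers were more positive under IFN-γ and 1 macrophage marker more negative (medians 0.29 and 1.81), and their part was not tested. Without scaling only Csf1r (0.27, adjusted p = 0.0391) remained of the listed calls, and Ly6c2 passed too. Spi1 lost its call without any 1 of 4 libraries: IFN-γ Tconv-phagocytic BV421-2, IL-10 Tconv-phagocytic BV421-1 and Ax647-2 and IL-10 Treg-phagocytic Ax647-1 (adjusted p 0.0502 to 0.0588). The Ly6c2 call was lost on leaving out 14 of the 16 libraries in turn, all but IFN-γ Tconv-phagocytic BV421-1 and IL-10 Tconv-phagocytic BV421-2 (0.0547 to 0.102).

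Of the ligands of these receptors, Csf1 was the only 1 of 6 that passed the filter, and its levels moved with cytokine and cargo. M0 libraries held 16.96, 17.12, 15.67 and 17.03 TPM and IFN-γ libraries 1.08 to 4.2 TPM. Under IL-10 they held 7.21, 9.3, 9.12 and 10.01 TPM without uptake, 14.08, 16.26, 13.88 and 14.21 TPM after Tconv uptake and 5.97, 4.02, 6.15 and 4.55 TPM after Treg uptake. No 2 of these IL-10 groups overlapped. Against non-phagocytic macrophages Csf1 was higher by 0.73 after Tconv uptake (limma adjusted p = 0.00426) and lower after Treg uptake (-0.61, adjusted p = 0.0287). Between the cargoes it differed by -1.34 (adjusted p = 0.0011). The stromal marker sums given above have the same order over the 3 IL-10 groups, and their part in the Csf1 result was not tested.

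Other receptor subunits of the family followed the β chain in part. Csf2rb2, the near copy of Csf2rb, was lower under IFN-γ than in M0 (-0.93, limma adjusted p = 1.27e-06) and was lower after Treg uptake under IL-10 (-0.21, adjusted p = 0.0295). Its level in IL-10 non-phagocytic libraries (150 ± 6.43 TPM) was close to that in M0 (139.7 ± 4.56 TPM) and the difference (0.09) did not pass. Csf3r, the G-CSF receptor, was higher under IL-10 than in M0 (0.77, adjusted p = 1.35e-06).

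Among the 22 signalling genes of CSF receptors (adaptors, kinases and feedback inhibitors), all passed the filter. Under IFN-γ against M0 11 of 22 were higher and 6 lower, beside 27.1% and 25.8% of all genes. Under IL-10 8 were higher and 2 lower, beside 13.7% and 12.8%. Socs3, a feedback inhibitor of JAK and STAT signalling, was at 3.79 ± 1.16 TPM in M0, 14.9 ± 2.62 TPM in IFN-γ and 168.2 ± 4.58 TPM in IL-10 non-phagocytic libraries, a log2 difference from M0 of 2.00 (limma adjusted p = 4.06e-05) and 5.13 (adjusted p = 6.93e-08). Plcg2, a phospholipase downstream of the receptors, was lower under IFN-γ (-0.91, adjusted p = 1.34e-05), as was the adaptor Gab2 (-0.81, adjusted p = 5.6e-06). Under IFN-γ, 2 of the 22 differed from non-phagocytic macrophages after Treg uptake (0 higher, 2 lower), beside 3% of all genes higher and 5.3% lower. After Tconv uptake 0 of the 22 differed, beside 0% higher and 0.00734% lower. Under IL-10 4 were higher and 2 lower after Treg uptake, beside 6.91% and 4.49% of all genes. After Tconv uptake 2 were higher and 0 lower, beside 4.23% and 1.8%. The adaptors Grb2 (0.24 and 0.20, adjusted p = 0.0179 and 0.0486) and Tyrobp (0.13 and 0.19, adjusted p = 0.0159 and 0.0115) were higher after Treg and Tconv uptake.

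Of 41 other myeloid transcription factors, 39 were tested, and 15 were higher and 11 lower under IFN-γ than in M0, beside 27.1% and 25.8% of all genes, so the lower count is near the background. Under IL-10 12 were higher and 10 lower, beside 13.7% and 12.8%. Egr1, an immediate early gene induced by growth factors, was at 55.5 ± 2.35 TPM in M0 and 5.93 ± 0.548 TPM under IFN-γ (-2.76, limma adjusted p = 6.67e-08). Klf6 was at 279 ± 22.4 TPM in IFN-γ non-phagocytic and 119.5 ± 8.53 TPM in IFN-γ Treg-phagocytic libraries (-1.14, adjusted p = 0.000576), a far larger difference than that of any of the 9 genes except Ly6c2. Bach1, a repressor that responds to haem, was lower there too (-0.71, adjusted p = 0.00373). Spic, the PU.1 relative of red pulp macrophages, was low but higher after Treg (1.40, adjusted p = 0.000395) and Tconv uptake (0.90, adjusted p = 0.0122) under IL-10. Spib was at 1.15 TPM or less in every group mean.

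In the families of Adgre1 and Ly6c2, 7 of 11 other genes were tested. Under IFN-γ against M0 5 were higher and 1 lower, beside 27.1% and 25.8% of all genes, and under IL-10 0 of 7 passed in limma, beside 13.7% and 12.8%. Ly6c1, the near copy of Ly6c2, was at 0.6, 0.73, 1.87 and 1.06 TPM in M0 and 6.92, 14.9, 14.14 and 9.23 TPM in IFN-γ non-phagocytic libraries (2.76, adjusted p = 4.09e-05). It held about 4 to 35.7 reads a library. In IFN-γ Treg-phagocytic libraries, where Ly6c2 was at or near 0, Ly6c1 was at 18.33, 9.27, 18.46 and 5.64 TPM. Ly6a, which encodes Sca-1, was higher under IFN-γ (4.42, adjusted p = 2.63e-07). Adgre5 (CD97) was lower under IFN-γ (-0.47, adjusted p = 0.00208). In the same comparison with M0, 22 of 23 T cell markers were higher, and the part of T cell RNA in these values was not tested.

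**Figure D4:**
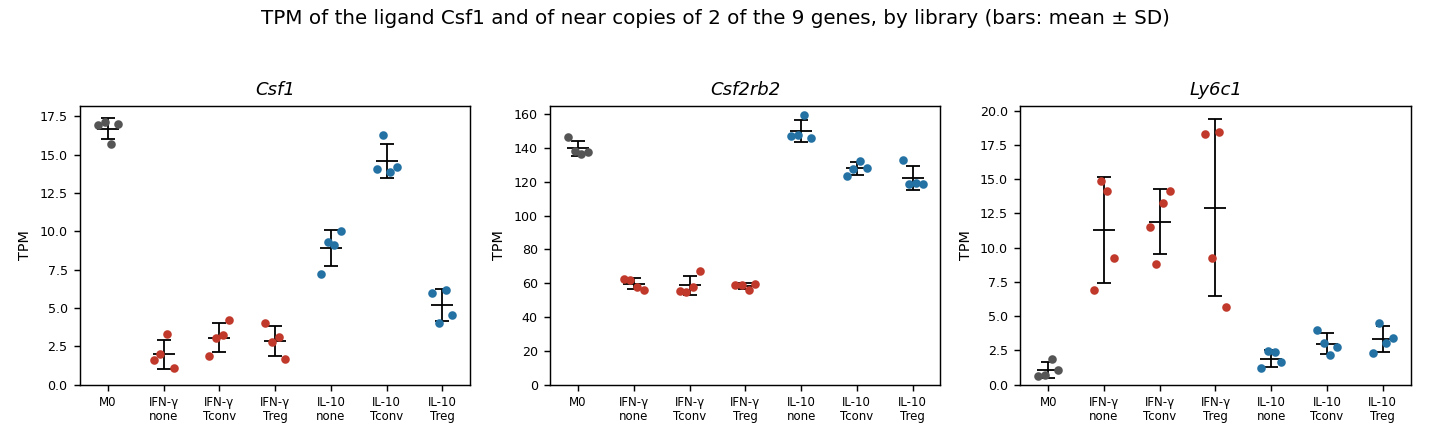
TPM of Csf1, Csf2rb2 and Ly6c1 in each of 28 libraries (vertical axes from 0; 4 points a group; bars are mean ± SD; "none" marks non-phagocytic groups). Csf1 is at 15.7 to 17.1 TPM in M0 and its 3 IL-10 groups do not overlap, and Ly6c1 is at 5.64 TPM or more in every IFN-γ library and 4.53 TPM or less in every other one.

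Across all 28 libraries the 8 genes other than Ly6c2 moved together to different degrees. These correlations are descriptions over libraries that share groups and depth. Pearson's r of log2 values was 0.91 for Csf1r with Maf, 0.91 for Csf1r with Cebpb and 0.88 for Csf1r with Csf2rb, and 0.20 for Csf2ra with Spi1. Within groups, as deviations from group means, the same pairs had r of 0.17, 0.24, 0.27 and 0.07. Among 8653 genes with a mean of 5 TPM or more, those most like Csf1r were Tnfrsf1a (0.98) and Itgam (0.98). Those most like Csf2ra were Lonp1 (0.97), Tln1 (0.96) and Ergic1 (0.95), and those most like Csf2rb were Tanc2 (0.96), Hsd3b7 (0.96) and Qk (0.96). For Spi1 they were Tm2d2 (0.93), Ifitm2 (0.92) and Tmem37 (0.92), for Cebpa Mfsd5 (0.95), Hnrnpf (0.93) and Cenpb (0.92), for Cebpb Tgfbi (0.93) and Rnf149 (0.93). For Maf they were Itm2c (0.94), Clec4a1 (0.94) and Pla2g15 (0.94) and for Adgre1 Eef1a1 (0.92), Tnfaip8l2 (0.91) and H1f0 (0.91). Ly6c2 had no gene above 0.77.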

How the data were processed

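TPM of 28 poly(A) RNA-seq libraries were used. The deposited values are TPM for Ensembl gene IDs, per the file headers, and STAR, RSEM and mm10 are named in the submitters' processing notes with no role or version. Of 55487 IDs, 55141 had a symbol. Of 378 library pairs, 0 were identical. The strand setting and annotation of the counting are not given in the sources used here. Positions are from GENCODE vM21 on GRCm38.

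TPM were divided by a scaling factor (unweighted trimmed mean of log2 ratios, 30% of ratios and 5% of levels trimmed), and log2(scaled TPM + 1) was tested with limma 3.58.1 (R 4.3.3; lmFit, eBayes with a trend). Each fit held only the groups compared, since the IFN-γ groups had a larger spread. The filter kept genes that reached 1 TPM in 4 or more libraries, 13631 in all. No total count is known. Relative depth came from low values of single-transcript genes, of which 88.1% to 92.0% lay within 0.15 reads of a whole number. Chance would give 30% for a step fixed in advance. The step of each library was chosen by this share, so the share is no test of the estimate. Intervals of tests cover the spread between libraries only.

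The 9 genes and all lists were chosen with earlier results of these data known. Genes named beside the 9 are their closest relatives, the called genes of each list with the largest differences (mean of at least 5 TPM), and the 3 most correlated genes; some that the rule picked are left out here. The dye in titles and library names disagrees for all 8 Treg-phagocytic libraries, and phagocytic libraries are named by the dye of their title. Replicate numbers did not pair the libraries: in 0 of 10 pairings did every pair of deviations correlate above 0.1. The IFN-γ and IL-10 non-phagocytic groups carry no dye, so their 4 pairs by file number enter again, unchanged, as pairs by title number.

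Alternatives were no scaling, median-of-ratios scaling, a pseudocount of 0.1, no filter, a model of all 28 libraries with and without variance weights, replicate blocks, and leaving out each library. For Treg against Tconv the dye in the library names was also used as a covariate. Median-of-ratios factors were close to the main ones (-0.295 against -0.292 on the log2 scale for IFN-γ non-phagocytic against M0). Scripts were tested on simulated data.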

Additional observations from a re-analysis of the deposited data

Results flagged for a closer look

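In 4 of 63 groups of 4 libraries, 1 library lay far from the other 3 by Dixon's 95% criterion, which chance meets in about 1 in 20 groups. They were Spi1 in M0 replicate 1 (240.57 TPM), Cebpa in IFN-γ Tconv-phagocytic Ax647-2 (69.96 TPM), Maf in IL-10 Treg-phagocytic Ax647-1 (37.62 TPM) and Ly6c2 in IFN-γ Treg-phagocytic BV421-1 (0.14 TPM, where the other 3 are listed at 0).

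The change after Treg uptake differed between IFN-γ and IL-10 in limma's test of that difference. Against non-phagocytic macrophages the log2 change under IFN-γ minus that under IL-10 was 0.391 for Csf1r, 0.467 for Csf2ra, 0.203 for Spi1, 0.365 for Cebpb, 0.346 for Adgre1 and -1.902 for Ly6c2. Against Tconv-phagocytic macrophages it was 0.397 for Csf1r, 0.252 for Spi1, 0.398 for Cebpa, 0.351 for Cebpb, 0.303 for Adgre1 and -1.363 for Ly6c2. The 2 sets share the Treg-phagocytic libraries.

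The Ly6c2 values rest on few reads, and Ly6c2 passed the filter mainly through the IFN-γ non-phagocytic libraries. Its flagged differences are therefore listed as values and not counted as results.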

How the results depend on the processing

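Over 99 differences of the 9 genes and 1665 alternative values, 1498 kept their direction and their side of the threshold, 111 lost a call, 24 gained one and 32 changed sign. Of the values from leaving out 1 library, 834 of 936 kept both, and of the others 664 of 729 did. The cause of the shifts below was not tested.

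Without scaling the log2 difference changed sign for Spi1 in IFN-γ non-phagocytic against M0 (-0.214), Csf1r in IFN-γ Tconv against non-phagocytic (0.041), Maf in IFN-γ Treg against Tconv (-0.004), Cebpa (-0.008) and Maf (-0.057) in IL-10 Treg against non-phagocytic, and Cebpa in IL-10 Tconv against non-phagocytic (-0.009). With a pseudocount of 0.1, Ly6c2 in IL-10 non-phagocytic against M0 became 0.149. Leaving out 1 library at a time, differences near 0 changed sign: Adgre1 from -0.018 to 0.079 and Csf1r from -0.078 to 0.032 in IFN-γ Tconv against non-phagocytic, Csf2ra from -0.062 to 0.058 in IFN-γ Treg against non-phagocytic, Cebpb from -0.099 to 0.043 in IFN-γ against M0, Ly6c2 from -0.152 to 0.074 in IL-10 against M0, Adgre1 from -0.031 to 0.001 and Csf1r from -0.015 to 0.017 in IL-10 Tconv against non-phagocytic, Maf from -0.008 to 0.036 in IL-10 Treg against non-phagocytic, and Cebpa from -0.019 to 0.027 and Csf2rb from -0.072 to 0.012 in IL-10 Treg against Tconv.

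The number of genes called over the whole table (and of the 9 with Ly6c2 included) moved more, from 1131 (4 of the 9) for IFN-γ Treg against non-phagocytic, 1 (0) for IFN-γ Tconv against non-phagocytic, 1733 (3) for IFN-γ Treg against Tconv, 3619 (7) for IL-10 against M0, 1554 (4) for IL-10 Treg against non-phagocytic, 822 (3) for IL-10 Tconv against non-phagocytic and 191 (0) for IL-10 Treg against Tconv. One model of all 28 libraries called 3867, 117, 4433 (6 of the 9), 1801, 631, 251 (1 of the 9) and 108 genes in that order. Variance weights called 0 genes for IFN-γ Tconv against non-phagocytic, 368 (1 of the 9) for IL-10 Treg against Tconv, and 3 of the 9 for the difference between cytokines of Treg against non-phagocytic. Without a filter IFN-γ Treg against non-phagocytic had 716 calls (2 of the 9) and IFN-γ Treg against Tconv 1079. Without scaling 2 of the 9 were called in IFN-γ Treg against non-phagocytic, 0 in IFN-γ Treg against Tconv and 2 in the difference between cytokines of Treg against Tconv, and 121 genes in that of Tconv against non-phagocytic (229 with scaling). The 2 of the 9 called for IFN-γ Treg against non-phagocytic without a filter, and also without scaling, were Adgre1 and Ly6c2. A pseudocount of 0.1 gave 5 calls for IFN-γ Tconv against non-phagocytic.

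Replicate numbers did not pair the libraries (r from -0.067 to 0.082, and 12 of 40 pairs correlated best with their own number). The 4 pairs of the IFN-γ and IL-10 non-phagocytic groups are counted again among these 40, by title number. With the file number as a replicate block, calls were 450 (1 of the 9) for IFN-γ Treg against non-phagocytic, 0 for IFN-γ Tconv against non-phagocytic, 1039 (1) for IFN-γ Treg against Tconv, 811 for IL-10 Treg against non-phagocytic, 284 (1) for IL-10 Tconv against non-phagocytic, 63 for IL-10 Treg against Tconv and 108 for the difference between cytokines of Tconv against non-phagocytic. The 1 of the 9 called by file number for IFN-γ Treg against non-phagocytic was Ly6c2, and Adgre1 missed the threshold (limma adjusted p = 0.053). With the title's dye and number as the replicate block, IFN-γ Treg against Tconv had 991 calls (1 of the 9) and IL-10 Treg against Tconv 73.

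Leaving out 1 library gave 664 to 918 calls (2 to 3 of the 9) for IFN-γ Treg against non-phagocytic, 1 to 4 for IFN-γ Tconv against non-phagocytic, 1042 to 1660 (1 to 4) for IFN-γ Treg against Tconv, 957 to 1387 for IL-10 Treg against non-phagocytic, 492 to 612 (1 to 3) for IL-10 Tconv against non-phagocytic, 104 to 177 (0 to 1) for IL-10 Treg against Tconv and 134 to 330 for the difference between cytokines of Tconv against non-phagocytic. Ly6c2 was each time among the 2 to 3 called for IFN-γ Treg against non-phagocytic. That call was partly built in by the filter and rests on few reads. Its holding here, or with the file number as a block, is therefore no support for it. Depth limits Ly6c2 most, at 0 to 7.5 estimated reads a library.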
